A study of Mus musculus with 6 samples.

Results

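The genes described here encode coregulators and pioneer factors of steroid hormone receptors. They are the p160 coactivators Ncoa1, Ncoa2 and Ncoa3, the corepressors Ncor1 and Nrip1, the DNA-binding factors Foxa1, Gata2 and Nr2f2, and the progesterone receptor membrane component Pgrmc1. They were chosen by name, and each was read from the probe set that the platform annotation assigns to that gene alone. Of the 9 genes, 8 had such a probe set, 1 each, among 19937 genes with a single-gene probe set, and the expression of Ncor1 was not analysed here. Expression was measured on single-colour whole-transcript arrays in 6 MASE2 tumours, 3 from SCID mice implanted with estradiol (E2) pellets and 3 from SCID mice implanted with placebo pellets. MASE2 cells are ascites cells from a tgCAG-LS-TAg transgenic mouse that had itself been given E2. In that model, adenovirus expressing Cre, injected under the ovarian bursa, switches on the SV40 large and small T antigens in the ovarian surface epithelium, so tumours of both groups descend from T antigen cells with earlier E2 exposure. SCID hosts lack mature T and B lymphocytes but keep macrophages, mast cells, fibroblasts and vessels. Tumours were taken at loss of wellness, and the labels state no pellet dose, collection day or mouse age.

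A steroid receptor bound to its hormone recruits p160 coactivators, which bring histone acetyltransferases to target genes, whereas corepressors bring deacetylases. Pioneer factors open chromatin so that the receptor can reach its sites: Foxa1 and GATA factors do so in breast and prostate cells. Nrip1 is known as an early oestrogen target in breast cancer cells, where it limits receptor activity. In the ovary, oestrogen receptors act in granulosa, stromal and surface cells, and Nrip1 is required for ovulation in mice.

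Stretches upstream of transcription starts are shown for Nrip1 and Nr2f2, the genes that passed the test once 1 atypical array was left out, and for Foxa1, whose promoter held more than 1 kind of searched motif. The sequences are RefSeq's (GRCm38.p6), 250 bases up to the start site, 5′ to 3′ on the gene's strand, with matches to the searched motifs in capitals.
Nrip1 chr16:76373828-76374077 (minus strand): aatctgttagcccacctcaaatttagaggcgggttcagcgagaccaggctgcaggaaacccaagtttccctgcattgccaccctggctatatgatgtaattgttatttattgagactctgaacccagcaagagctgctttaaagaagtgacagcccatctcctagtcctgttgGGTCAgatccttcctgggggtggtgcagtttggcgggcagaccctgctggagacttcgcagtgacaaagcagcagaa
Nrip1 chr16:76373050-76373299 (minus strand): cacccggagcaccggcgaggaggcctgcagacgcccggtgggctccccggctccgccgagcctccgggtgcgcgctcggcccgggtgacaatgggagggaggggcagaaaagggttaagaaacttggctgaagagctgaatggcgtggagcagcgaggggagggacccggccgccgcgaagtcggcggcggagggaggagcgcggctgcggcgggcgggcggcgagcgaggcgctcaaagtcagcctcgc
Foxa1 chr12:57546112-57546361 (minus strand): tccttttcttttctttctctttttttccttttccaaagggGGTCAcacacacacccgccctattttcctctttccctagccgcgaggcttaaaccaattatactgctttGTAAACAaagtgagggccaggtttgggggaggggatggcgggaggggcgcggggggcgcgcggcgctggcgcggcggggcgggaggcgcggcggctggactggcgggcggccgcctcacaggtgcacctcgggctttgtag
Nr2f2 chr7:70366747-70366996 (minus strand): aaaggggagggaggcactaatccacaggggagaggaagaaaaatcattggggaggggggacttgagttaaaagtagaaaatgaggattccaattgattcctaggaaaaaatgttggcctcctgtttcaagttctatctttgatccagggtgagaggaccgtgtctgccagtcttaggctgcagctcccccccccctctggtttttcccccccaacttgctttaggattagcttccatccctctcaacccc

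Motifs were searched on both strands of 300-base windows, the 250 bases before each start and the 50 from it on. The motifs were the core of the oestrogen response element, GGTCA and TGACC with 3 bases between them, its single arm GGTCA, which lies inside the full element, the forkhead motif TGTTTAC and the GATA motif AGATAA. RefSeq's table matched 7 of the 9 genes, with 10 windows, and Ncoa2 and Ncoa3 were not matched. Ncor1, whose expression was not analysed, is among the 7, and its windows held none of the motifs. The full element was in 0 of the 10 windows and in 0.0700% of the 32851 promoters in the table. The single arm was in 4 of the 10 and in 40.5% of all. It began 77 bases before the upstream start of Nrip1, 210 bases before that of Foxa1, and 123 and 8 bases before the starts of Gata2. The forkhead motif was in 1 window, that of Foxa1 itself, 141 bases before the start, and in 3.65% of all promoters. The GATA motif was in 0 of the 10 windows and in 11.2% of all. These matches describe letters in the windows and were not tested for binding.

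Values are log2 intensities made by the authors with RMA, and a log2 change is the E2 mean minus the placebo mean. The array of placebo replicate 3 stood apart. It correlated with each of the others at a Pearson r of 0.857 to 0.865 over genes, which are no independent replicates, and the others among themselves at 0.960 to 0.994. All 12 genes of an intestinal epithelium list were highest on that array. Their summed linear intensity was 249.7 to 351 in E2 tumours, 261 and 287 in placebo replicates 1 and 2, and 22087 in placebo replicate 3. Changes of the 8 genes are therefore given with and without placebo replicate 3. The label of ovarian cancer cells was set against 12 markers of ovarian surface epithelium and gonadal soma. None of these lay below the lower quartile of genes (4.22 to 4.39 over the 6 arrays) on all 6 arrays. But 4 were lower and 4 higher in every E2 tumour than in every placebo tumour (11.4% and 14.9% of all genes). In limma on all 6 arrays, 3 of the 12 rose and 1 fell, where 1.38% of all genes passed. Upk3b and Msln, surface markers, had log2 changes of -2.75 and -1.28 without passing limma, while Nr5a1, of steroidogenic cells, rose (log2 change 2.45). Without placebo replicate 3, 4 of the 12 rose and 4 fell (6.4% and 5.21% of all genes). Wt1, of the surface epithelium, measured 6.37 in placebo replicate 3 and 8.28 and 8.29 in placebo replicates 1 and 2. In bulk tumours, fewer cells of a type and less RNA per cell cannot be told apart.

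None of the 8 coregulator and pioneer factor genes passed the limma test of E2 against placebo on all 6 arrays (adjusted p 0.141 to 0.797). Over all genes 1.38% passed, a share at which 8 genes would hold few calls or none. At an unadjusted limma p under 0.05 there were 3 genes (Ncoa1, Nrip1 and Pgrmc1), where 16.5% of all genes reached that level. The mean was lower in E2 tumours for 6 of the 8 genes and higher for Nrip1 and Gata2, with a median change of -0.30, against -0.0087 over all genes. In 3 genes, Ncoa1, Foxa1 and Pgrmc1, every E2 value lay below every placebo value, a pattern that 11.4% of all genes showed. Without placebo replicate 3, Nrip1 rose and Nr2f2 fell. In that fit 11.6% of all genes passed, 6.4% higher and 5.21% lower in E2 tumours. The groups then did not overlap in 6 of the 8 genes, against 41.6% of all genes.

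**Figure D1:**
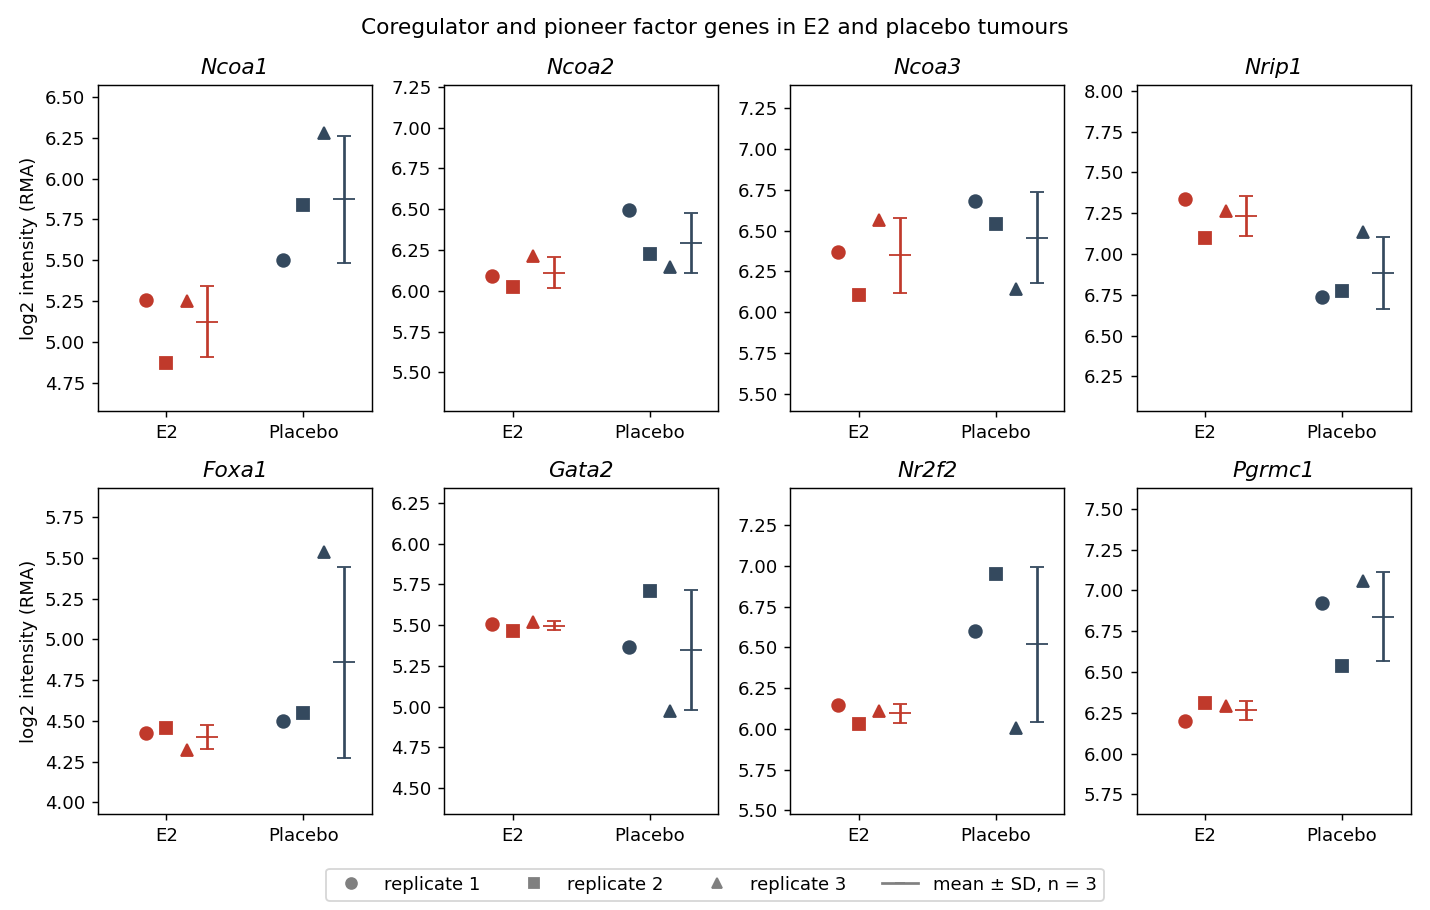
Log2 intensity of the 8 genes in each tumour, with E2 on the left and placebo on the right of every panel, symbols marking the replicate numbers and bars the mean ± SD (n = 3). Each panel spans 2 log2 units around its own middle, and placebo replicate 3 (triangle) is the highest placebo value for Ncoa1, Nrip1, Foxa1 and Pgrmc1 and the lowest for Ncoa2, Ncoa3, Gata2 and Nr2f2.

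Among the p160 coactivators, Ncoa1, also called SRC-1, had the widest difference. It measured 5.25, 4.87 and 5.25 in E2 tumours, against 5.50, 5.84 and 6.28 in placebo tumours. The groups did not overlap, and placebo replicate 3 was the highest. The log2 change was -0.75 (SE 0.22, 95% confidence interval -1.29 to -0.21), with an adjusted p of 0.182 in limma. Without placebo replicate 3 it was -0.55 (adjusted p = 0.0602), and an exact two-sided permutation test on all 6 arrays gave p = 0.10, the smallest that 3 against 3 allows.

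Ncoa2, also called GRIP1 or TIF2, measured 6.09, 6.03 and 6.21 in E2 tumours, against 6.50, 6.23 and 6.15 in placebo tumours. The groups overlapped, because E2 replicate 3 lay above placebo replicate 3. The log2 change was -0.18 (95% confidence interval -0.47 to 0.11, limma adjusted p = 0.499). It was -0.25 without placebo replicate 3 (adjusted p = 0.225), where the groups did not overlap. Ncoa3, the coactivator amplified in some breast cancers as AIB1, measured 6.37, 6.11 and 6.57 in E2 tumours, against 6.68, 6.54 and 6.14 in placebo tumours. These ranges overlapped almost entirely. Its log2 change was -0.11 (95% confidence interval -0.56 to 0.34, limma adjusted p = 0.797), and -0.26 without placebo replicate 3 (adjusted p = 0.304). The sign turned to 0.014 without E2 replicate 2 and 0.0052 without placebo replicate 1. Both intervals on 6 arrays hold 0 as well as decreases larger than the measured one, so equality of the groups is not shown.

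Nrip1, the corepressor RIP140, was the member with the clearest higher level in E2 tumours. It measured 7.34, 7.10 and 7.26 in E2 tumours, against 6.74, 6.77 and 7.14 in placebo tumours. Placebo replicate 3 lay above E2 replicate 2, and placebo replicates 1 and 2 lay below all E2 tumours. On all 6 arrays the log2 change was 0.35 (SE 0.14, 95% confidence interval 0.016 to 0.69, limma adjusted p = 0.287). It was 0.48 without placebo replicate 3 (SE 0.10, 95% confidence interval 0.24 to 0.72), a 1.39-fold difference that passed the test (limma adjusted p = 0.0232). The call therefore depends on that array, and the part of its intestinal signal in the Nrip1 value was not tested. The upstream window with a single GGTCA, printed above, is the Nrip1 start farther from the gene body.

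**Figure D2:**
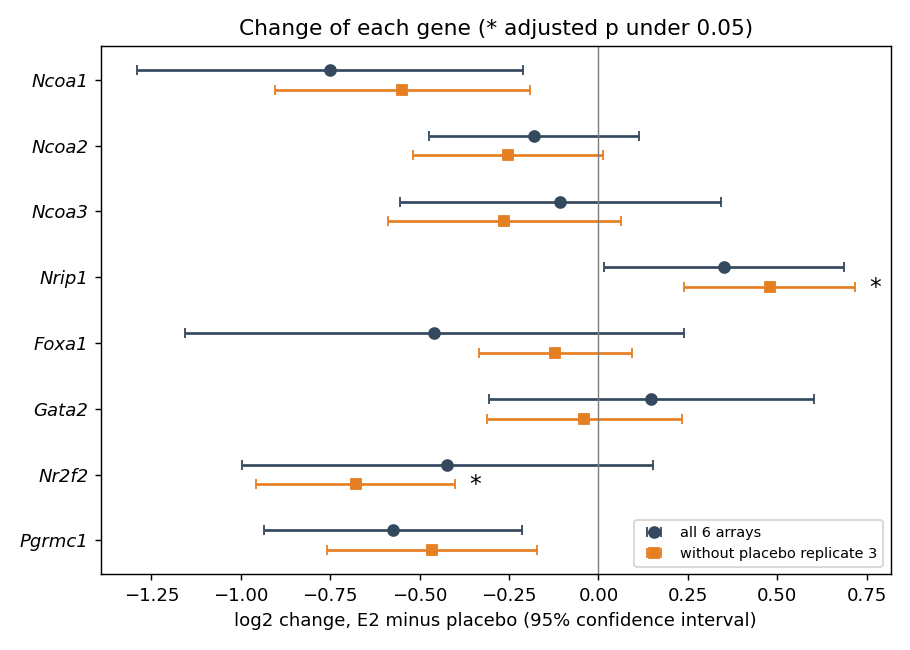
Log2 change (E2 minus placebo) of each gene with its 95% confidence interval, on all 6 arrays (circles) and without placebo replicate 3 (squares), with asterisks where the limma adjusted p was under 0.05. Only the squares of Nrip1 (0.48) and Nr2f2 (-0.68) carry an asterisk.

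Among the DNA-binding factors, Nr2f2, which encodes the orphan receptor COUP-TFII of mesenchymal and venous endothelial cells, measured 6.14, 6.03 and 6.11 in E2 tumours, against 6.60, 6.95 and 6.01 in placebo tumours. The E2 values lay within 0.11 log2 units of each other, and placebo replicate 3 lay below all of them while the other placebo tumours lay above. The log2 change was -0.42 on all 6 arrays (SE 0.24, 95% confidence interval -0.997 to 0.15, limma adjusted p = 0.430). With placebo replicate 3 left out, Nr2f2 fell (log2 change -0.68, SE 0.12, 95% confidence interval -0.96 to -0.40), which is 1.60-fold (limma adjusted p = 0.0108). Without placebo replicate 2 the change was -0.21 (adjusted p = 0.591), so each of these placebo tumours moved it by more than 1.5 times. Markers of other cell types were set beside it, and whether host or tumour cells expressed them was not tested. Of 10 endothelial genes, 8 were lower in every E2 tumour than in every placebo tumour, where 11.4% of all genes were. The summed linear intensity of the 10 was 363 to 439 in E2 tumours, against 530 to 571 in placebo tumours. Placebo replicate 3, the lowest array for Nr2f2, had an endothelial sum of 543. Of 8 fibroblast genes, 3 were lower without overlap and 1 was higher (11.4% and 14.9% of all genes). Their sum was 3658 to 4212 in E2 tumours, against 3437 to 5636 in placebo tumours, with the lowest value in placebo replicate 3. By mean log2 intensity the lowest was E2 replicate 2 (7.65), against 8.09 in placebo replicate 3. No gene of either list lay below the lower quartile on all 6 arrays. Of 6 adipocyte genes, 5 were lower without overlap (11.4% of all genes), with Lep below the lower quartile on all 6 arrays. Their sum was 133 to 146 in E2 tumours, against 207 to 288 in placebo tumours. Of 8 macrophage genes, 2 were lower without overlap (11.4% of all genes). Their sum was 1040 to 1409 in E2 tumours, against 1671 to 3268 in placebo tumours. Their mean log2 intensity overlapped, at 6.56 to 7.07 in E2 tumours and 6.90 to 8.08 in placebo tumours. In limma on all 6 arrays, 1 adipocyte gene (Adipoq, adjusted p = 0.0460) and 1 macrophage gene fell, where 1.38% of all genes passed. Of the endothelial and fibroblast genes 0 passed. Without placebo replicate 3, 4 endothelial, 4 fibroblast, 5 adipocyte and 7 macrophage genes fell, where 5.21% of all genes did. In that fit 1 fibroblast gene rose, where 6.4% of all genes did. The part of these cells in the Nr2f2 result was not tested.

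Foxa1, the forkhead pioneer factor of endodermal and luminal epithelia, measured 4.42, 4.46 and 4.32 in E2 tumours, against 4.50, 4.55 and 5.54 in placebo tumours. Of these 6 values, 5 lay within 0.23 log2 units of each other and close to the lower quartile of genes, and placebo replicate 3 stood 1.01 log2 units above the mean of the other placebo tumours. The log2 change was -0.46 (95% confidence interval -1.16 to 0.24, limma adjusted p = 0.478), and -0.12 without placebo replicate 3 (adjusted p = 0.489). The intestinal list given above was highest on the same array. Of 9 simple epithelium genes, 8 were highest there, and their summed intensity was 1022 to 1294 in E2 tumours, 1333 and 2357 in placebo replicates 2 and 1, and 8656 in placebo replicate 3. The genes with the pattern most like that of Foxa1 over the 6 arrays were Mmrn1, Tjp3 and Nostrin (Pearson r 0.998 to 1.00), each likewise highest in placebo replicate 3. For Ncoa1 they were Fam210b, Nkg7 and Ghrhr (r 0.995 to 0.997). These r values describe 6 arrays in 2 groups, 1 of them apart, and carry no test.

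Gata2, the zinc finger factor of blood, mast and endothelial cells, measured 5.51, 5.47 and 5.52 in E2 tumours, against 5.36, 5.71 and 4.97 in placebo tumours. The E2 tumours varied by an SD of 0.028 and the placebo tumours by an SD of 0.37 (n = 3 each), and the placebo range enclosed all E2 values. The log2 change was 0.15 (95% confidence interval -0.31 to 0.60, limma adjusted p = 0.714), and the sign turned to -0.039 without placebo replicate 3. Mast cell genes, whose cells depend on Gata2, were set beside it. Of 8 such genes, 5 were lower in every E2 tumour than in every placebo tumour (11.4% of all genes). The summed intensity of the 8 was 177 to 194 in E2 tumours, against 259 to 502 in placebo tumours. The 259 was that of placebo replicate 3, where Kit and Hdc were at their highest (6.21 and 5.99). Cpa3, Mcpt4 and Tpsb2 measured 4.47, 4.47 and 4.96 there, little above their highest E2 values (4.27, 4.47 and 4.90). Cma1 and Fcer1a overlapped between the groups. Ms4a2, a subunit of the mast cell IgE receptor, lay below the lower quartile on all 6 arrays. In all E2 tumours 3 of the 8 genes did (Cma1, Fcer1a and Ms4a2), and Cpa3 and Mcpt4 did in 2 E2 tumours. In the fit without placebo replicate 3, 7 of these 8 genes fell, where 5.21% of all genes did, while Gata2 differed by -0.039 (95% confidence interval -0.31 to 0.23).

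**Figure D3:**
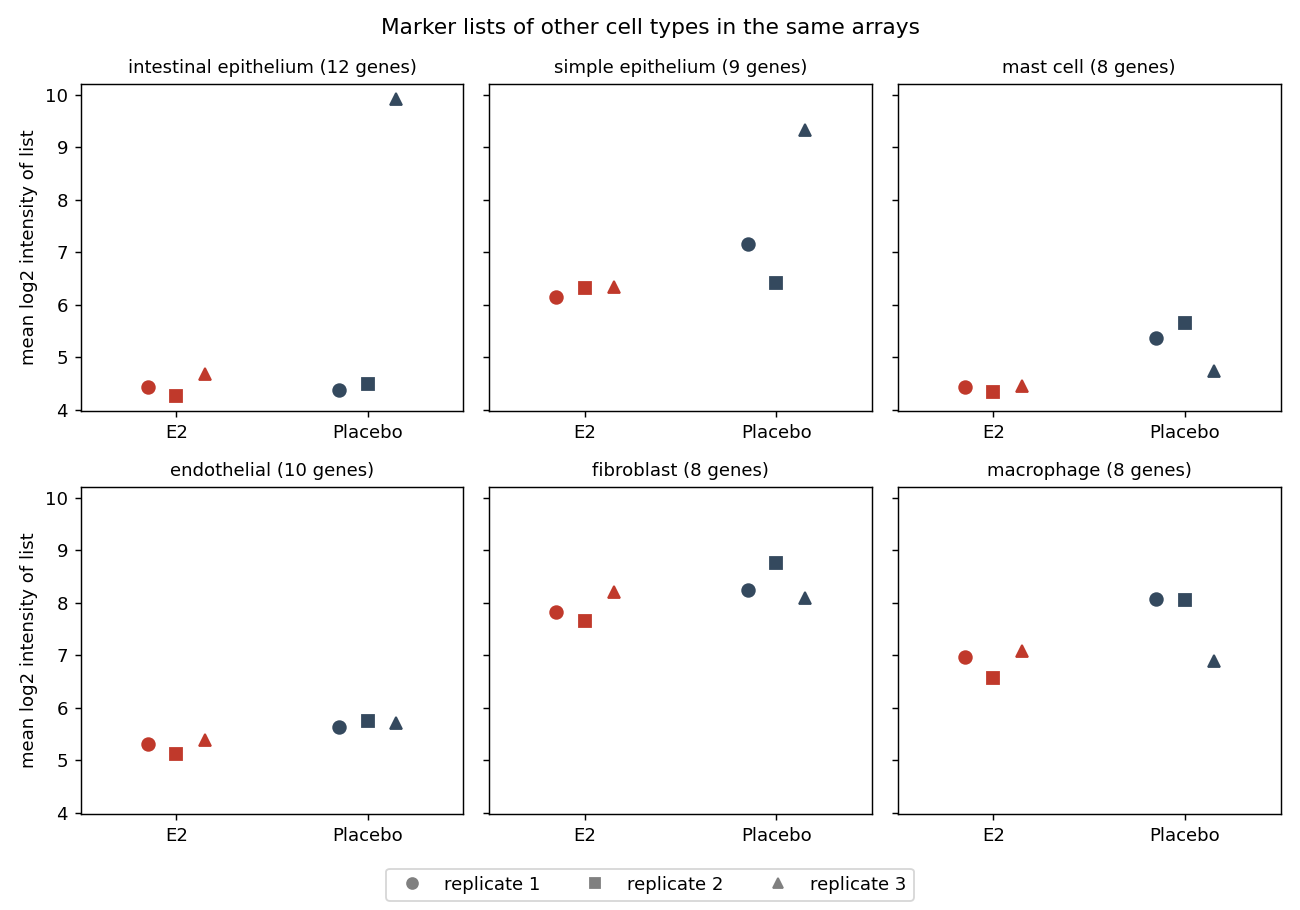
Mean log2 intensity of 6 marker lists in each tumour, with E2 on the left, placebo on the right and symbols for the replicate numbers. Placebo replicate 3 (triangle) stands alone in the intestinal and simple epithelium panels, and the 3 E2 tumours lie below all placebo tumours in the mast cell and endothelial panels. In the mast cell panel, placebo replicate 3 (4.74) lies nearer to the E2 tumours (4.33 to 4.46) than to the other placebo tumours (5.37 and 5.66).

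Pgrmc1, a haem-binding membrane protein that takes part in the actions of progesterone on granulosa cells, measured 6.20, 6.31 and 6.29 in E2 tumours, against 6.92, 6.54 and 7.06 in placebo tumours. The groups did not overlap. The log2 change was -0.57 (SE 0.15, 95% confidence interval -0.94 to -0.21), and of the 8 genes it had the smallest adjusted p in limma on all 6 arrays, 0.141. The change was -0.47 without placebo replicate 3 (adjusted p = 0.0539), just outside the threshold. The exact two-sided permutation test gave p = 0.10, the smallest possible. Of 8 other genes of membrane progestin signalling, among them Pgrmc2 and the Paqr receptors, 0 passed limma on all 6 arrays (1.38% of all genes), 3 had an unadjusted p under 0.05 (16.5% of all genes), and 0 passed without placebo replicate 3 (11.6% of all genes). Their median change was 0.16, or 0.15 without that array.

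Among the receptors that these proteins serve, 5 steroid receptor genes were measured. Pgr, the nuclear progesterone receptor gene, was the only one that passed on all 6 arrays, where 1.38% of all genes did. It measured 7.31, 7.09 and 7.12 in E2 tumours, against 3.83, 5.36 and 4.40 in placebo tumours (log2 change 2.64, limma adjusted p = 0.0376, or 2.58 without placebo replicate 3), with 1 placebo value below the lower quartile. Esr1 measured 9.36, 9.29 and 9.17 in E2 tumours, against 8.92, 9.06 and 6.35 in placebo tumours, and did not pass (log2 change 1.17, adjusted p = 0.475, or 0.29 and 0.125 without placebo replicate 3). Nr3c1, the glucocorticoid receptor gene, was 0.50 log2 units lower and fell only in the fit without placebo replicate 3 among those that left out 1 array (log2 change -0.55, limma adjusted p = 0.0209). With all 6 arrays kept, Nr3c1 also passed limma after repeated quantile normalization (log2 change -0.63, adjusted p = 0.0308) and with array weights (-0.57, adjusted p = 0.0220).

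Among other coregulators, 21 further coactivator genes held 0 calls on all 6 arrays, where 1.38% of all genes passed. At an unadjusted limma p under 0.05 there were 4, where 16.5% of all genes were. The median change of the 21 was 0.11, and -0.039 without placebo replicate 3, so its sign turned on that array. Ncoa4, which binds ferritin and the androgen receptor, measured 8.43, 8.37 and 8.53 in E2 tumours, against 9.16, 9.03 and 8.86 in placebo tumours. Those groups did not overlap, and its adjusted p in limma was 0.0704, or 0.0052 without placebo replicate 3. In that fit Ncoa4 alone of this list fell, where 5.21% of all genes did. The 17 measured corepressor genes had a median change of 0.30, or 0.16 without placebo replicate 3, and 9 lay higher in E2 tumours without overlap, a pattern that 14.9% of all genes showed. Of the 17, Nr0b2 alone passed on all 6 arrays, where 1.38% of all genes did. Nr0b2 encodes SHP, a receptor without a DNA-binding domain that represses other nuclear receptors. It measured 6.0, 6.05 and 5.93 in E2 tumours, against 4.62, 4.64 and 4.88 in placebo tumours. It rose by 1.28 on the log2 scale (SE 0.10, limma adjusted p = 0.00708). Without placebo replicate 3 the genes that rose were Nr0b2, Hdac1, Phb2 and Tle3 (log2 changes 0.46 to 1.36), where 6.4% of all genes did. Tbl1x, a subunit of the NCoR complex, fell in that fit (log2 change -0.54), where 5.21% of all genes did. Tbl1x had the opposite sign, 0.10, without placebo replicate 1.

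Of 14 other pioneer and partner factors, Gata4 alone passed on all 6 arrays, where 1.38% of all genes did. Gata4, the GATA factor of gonadal somatic cells, measured 8.48, 8.33 and 8.66 in E2 tumours, against 6.61, 7.12 and 6.92 in placebo tumours. It rose (log2 change 1.61, SE 0.16, limma adjusted p = 0.0136, or 1.63 without placebo replicate 3), where Gata2 did not pass. The difference between the 2 changes was not tested. Gata5 was 1.14 log2 units lower and was highest in placebo replicate 3 (6.80), and without that array it fell (log2 change -0.58, adjusted p = 0.0165). The median change of this list was -0.060, and 0.040 without that array, so its sign turned too. The 3 calls on all 6 arrays, Nr0b2, Gata4 and Pgr, were all lost when any 1 of the E2 replicates was left out, and without placebo replicate 1 Pgr lost its call and 2 of the 3 passed. Their log2 changes moved little in the fits without an E2 replicate, at 1.25 to 1.31 for Nr0b2, 1.53 to 1.69 for Gata4 and 2.57 to 2.68 for Pgr.

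**Figure D4:**
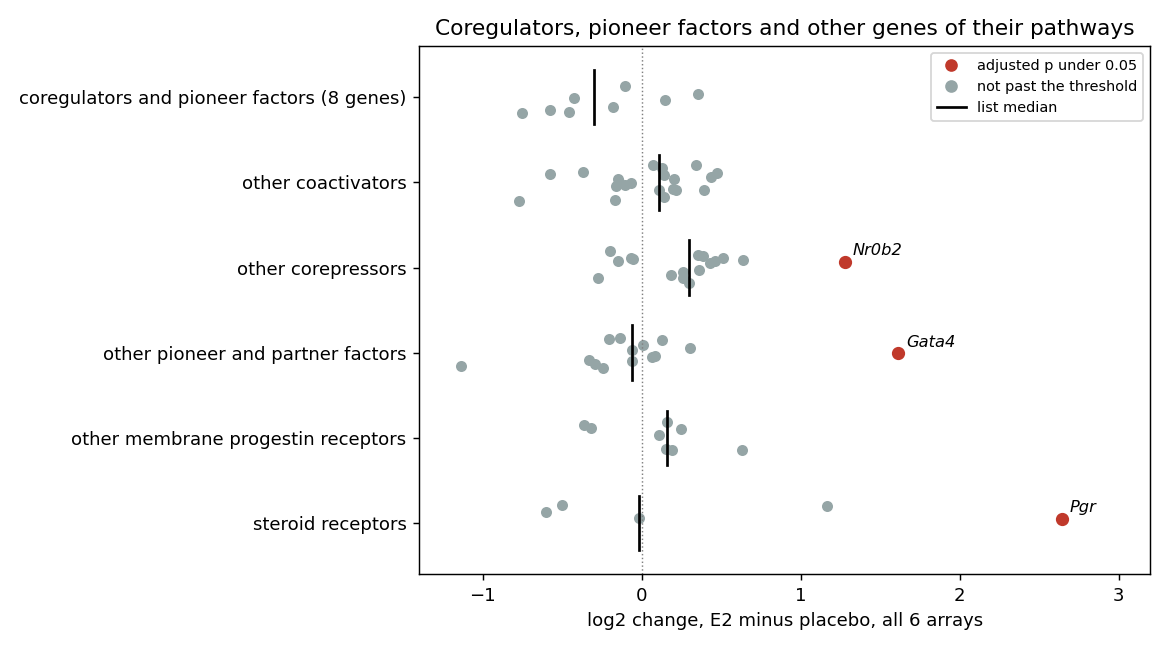
Log2 change (E2 minus placebo, all 6 arrays) of the 8 coregulator and pioneer factor genes and of 5 lists of related genes, each dot 1 gene, with red dots for a limma adjusted p under 0.05 and black bars for list medians. The 8 genes lie between -0.75 and 0.35, and the red dots are Nr0b2 (1.28), Gata4 (1.61) and Pgr (2.64).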

How the data were processed

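RNA of 6 tumours was hybridised to 1 array each, and groups and replicate numbers came from the sample titles. Per the submitters' processing notes, the authors used RMA, and the deposited table holds its log2 intensities for each probe set. Its software and version are not given in the sources used. RMA equalises array distributions and compresses changes near background. Of 34760 probe sets, 21640 had 1 gene symbol in the platform annotation, 1321 had several and 11799 were unnamed. The probe set of highest mean stood for a gene, and all 19937 genes were tested. No detection call was used here.

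E2 was compared with placebo by lmFit and eBayes of limma 3.58.1 (R 4.3.3) without covariates, two-sided, with Benjamini-Hochberg adjustment over all genes and a threshold of 0.05. The method was tested on simulated data. The number of arrays limits the precision. The members and lists were chosen with earlier results of these data known. Named were all members, list genes past the threshold with or without placebo replicate 3 (at most 6 per list), and, for members ranging over at least 1 log2 unit, the 3 protein-coding genes of highest Pearson r. Esr1, Pgrmc2 and the markers named were outside this rule, chosen after their values were seen. Alternatives tried were the omission of each array, a replicate block, a filter at the 25th percentile, the mean of probe sets, repeated quantile normalization, centring on medians, array weights, a variance prior that was trended and robust, and, for the members, all probe sets singly.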

Additional observations from a re-analysis of the deposited data

How the results depend on the processing

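The number of coregulator and pioneer factor genes past the threshold was 0 on all 6 arrays and ranged from 0 to 2 when 1 array was left out, with both calls (Nrip1 and Nr2f2) in the fit without placebo replicate 3. With array weights it was 3, as Pgrmc1 joined them (log2 change -0.50, adjusted p = 0.0477). The weight of placebo replicate 3 was 0.149, and that of every other array was at least 1.14. The weighted fit therefore set largely the same array aside, and it is no independent check of the fit without placebo replicate 3. The number stayed at 0 with the replicate block, repeated quantile normalization, centring on medians and a trended, robust variance. It was also 0 with the filter and the mean of probe sets. All 8 genes lay above the filter and had 1 probe set each, so those settings left their values unchanged. When 1 array was left out, the log2 change of Ncoa3 ranged from -0.26 to 0.014, turning sign without E2 replicate 2 and without placebo replicate 1 (0.0052), that of Gata2 from -0.039 (without placebo replicate 3) to 0.33, and that of Tbl1x from -0.54 to 0.10 (without placebo replicate 1). Gata2 was also at -0.0029 with array weights. The 10 related genes named beside them kept their direction under the 13 alternatives run for them, except Tbl1x. The number of related genes past the threshold was 3 and ranged from 0 to 10 when 1 array was left out. It was 0 with the replicate block, 4 with repeated quantile normalization, as Nr3c1 joined, and 8 with array weights. Over all genes, 276 passed, 31 to 2315 when 1 array was left out, 10 with the replicate block, 422 with median centring and 1786 with array weights. Deviations from the group means did not go together in same-numbered E2 and placebo tumours (r -0.029, -0.18 and -0.13 over genes). By these deviations, 0 of the 3 E2 tumours correlated best with the placebo tumour of their own number. Placebo replicate 3 weighs on the mean of its group and so on every placebo deviation, so this check cannot exclude pairing. The titles give the numbers only as replicates, and they were not taken to pair the samples. With 3 tumours per group, changes of the size seen here, under 1 log2 unit, may be missed, and the depth of signal over background is unknown because no detection call was used here.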
